A study of Mus musculus with 12 samples.

Results

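The pairs described here are three-way contacts in which an upstream enhancer of Nanog, the −45 enhancer, lies between the 2 other fragments it met. Tri-C is a chromosome conformation capture assay in which DpnII cuts crosslinked chromatin and the ends are ligated, so that a sequenced molecule carries a captured viewpoint and the other fragments, the reporters, that were near it in the same nucleus. A pair was taken as straddling when the midpoint of 1 reporter lay in chr6:121663539-122660000 and that of the other in chr6:122670001-123663539 (mm10), that is, within 1 Mb on either side of the viewpoint and outside its own 10 kb bin. Upstream means lower coordinates, which is also upstream of Nanog, a gene on the plus strand. In naive cells 2107 of the 24352 distinct fragment pairs of this viewpoint were straddling, with 2596 of 41081 counts. In primed cells the figures were 1416 of 21530 distinct pairs and 1753 of 32749 counts. The 46 tables of the series held 159167 distinct pairs and 241872 counts.

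The cells were J1, a line of mouse embryonic stem cells. Naive cells were kept in serum-free N2B27 medium with 2i and LIF, and primed cells were obtained from them by culture for a week with Fgf2 and Activin A, without 2i and LIF. Each state had 3 biological replicates per pool of capture oligonucleotides, 12 samples in all, of which the 6 of pool 1 hold this viewpoint. The deposited tables name no replicate and were taken as pooled, so each state is 1 table and no value has a replicate error. All intervals are 95% intervals that cover counting error alone: reads with over 2 reporters add several pairs, and amplified copies are not independent molecules.

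Nanog encodes a homeodomain transcription factor of the pluripotency network, and its neighbours Dppa3 and Gdf3 are also genes of pluripotent cells. Dppa3 protects methylation marks in the early embryo, and Gdf3 is a ligand of the TGF-beta family. The locus carries enhancers on both sides of Nanog, named by their distance from its start in kb, and the −45 enhancer stands between Dppa3 and Nanog. In a pair on 1 side of a viewpoint both reporters come from the same flank, whereas a straddling pair joins sequence of both flanks with the viewpoint.

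The capture oligonucleotide and the Nanog promoter are shown because they fix where the contact starts and which fragments carry the Nanog start. The viewpoint oligonucleotide of 100 bases lies at chr6:122663539-122663638 and holds no GATC, the letters that DpnII cuts. The promoter is given from RefSeq (GRCm38.p6) as the 250 bases before the Nanog start, chr6:122707239-122707488 on the plus strand, with GATC in capitals.
viewpoint oligonucleotide: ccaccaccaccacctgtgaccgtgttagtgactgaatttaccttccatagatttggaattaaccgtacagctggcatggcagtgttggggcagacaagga
Nanog promoter: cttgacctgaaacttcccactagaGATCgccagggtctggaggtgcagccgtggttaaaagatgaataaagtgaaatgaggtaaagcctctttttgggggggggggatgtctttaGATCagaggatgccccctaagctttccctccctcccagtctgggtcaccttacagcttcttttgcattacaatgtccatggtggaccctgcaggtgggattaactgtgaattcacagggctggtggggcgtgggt
These letters read the same on both strands, and 41.9% of the 32851 promoters of the table held them in the 250 bases before the start. The 2 sites, at 122707263 and 122707354, end the fragments found in the files at this promoter. The fragment that holds the start, chr6:122707358-122707701, was the downstream reporter of 11 straddling counts in naive and 2 in primed cells, out of 104 and 50 counts of any kind. The promoter fragment before it, chr6:122707267-122707353, had 7 and 4 straddling counts of 163 and 50. No reporter fragment lay over the oligonucleotide. The nearest ones ended at 122662936 and began at 122664257.

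Straddling pairs made up a similar share of the contacts of the enhancer in both states. Of the counts with both reporters within 1 Mb and outside the viewpoint bin, 13.6% straddled in naive cells (95% interval 13.2 to 14.1, 2596 of 19024) and 13.5% in primed cells (12.9 to 14.1, 1753 of 13017). The ratio of naive to primed was 1.01 (0.953 to 1.08). Pairs with both reporters upstream made up 28.1% and 28.8%, and pairs with both downstream 58.3% and 57.7%. The equality depends on what is counted. As a share of every count of the table, straddling pairs were 6.32% (naive) and 5.35% (primed), and the ratio was 1.18 (1.11 to 1.25). Counting each distinct pair once gave 23.0% and 20.3%, with a ratio of 1.14 (1.06 to 1.22).

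Straddling contacts were spread over many different fragment pairs. In naive cells 83.9% of the distinct straddling pairs were seen once, and in primed cells 83.0%. A distinct pair had 1.23 counts on average in naive and 1.24 in primed cells, against 2.18 and 1.93 for pairs with both reporters upstream and 2.42 and 2.07 for pairs with both downstream. Of 3472 distinct straddling pairs seen in either state, 51 were seen in both, which is 2.42% of the naive and 3.60% of the primed pairs. The 2 reporters of a straddling pair lay far apart, with a median separation of 156 kb in naive (153 to 163) and 163 kb in primed cells (155 to 169). On 1 side the median separation was 0.473 kb upstream and 0.457 kb downstream in naive cells, and 0.530 and 0.518 kb in primed cells, so that most of those pairs joined fragments close to each other.

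Among 10 viewpoints with at least 400 such counts in each state, the straddling share of the −45 enhancer was low. The other 9 viewpoints ranged from 11.7% to 21.9% in naive and from 13.7% to 20.5% in primed cells. The −45 enhancer ranked 9 of 10 in naive and 10 of 10 in primed cells, with the highest share first. With each distinct pair counted once, 6 of the other 9 had a lower share than it in naive and 5 in primed cells, so the low rank holds only for counts as deposited. At 6 of the others the interval of the naive to primed ratio also held 1. The share was higher in naive cells at the viewpoint labelled Sox2-SE (ratio 1.15, 1.04 to 1.26) and at cMyc-2 (1.07, 1.02 to 1.13), and lower at cMyc (0.823, 0.750 to 0.903).

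**Figure D1:**
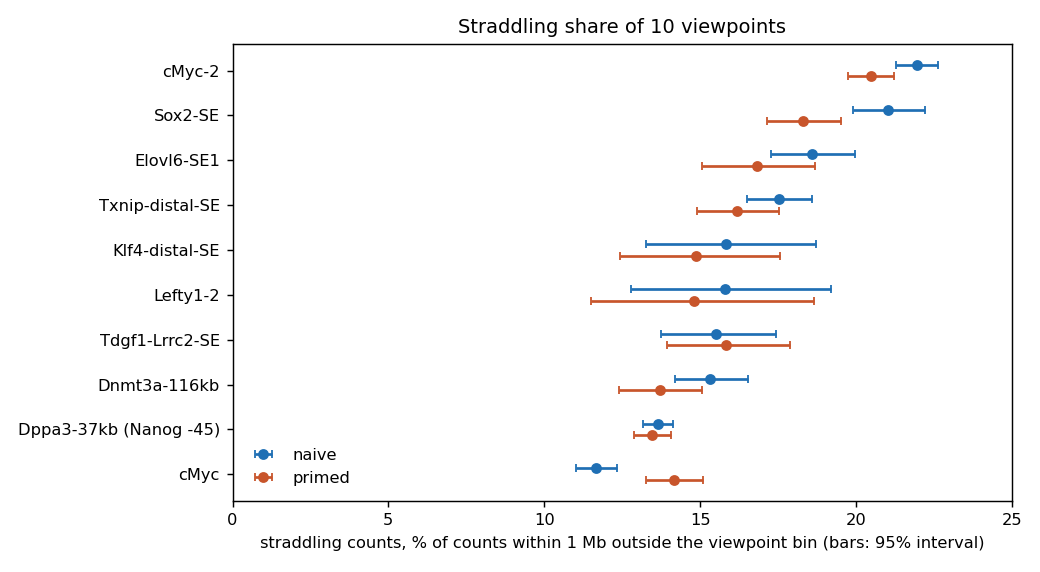
Straddling counts as a percentage of the counts with both reporters within 1 Mb and outside the viewpoint bin (x axis) at 10 viewpoints (y axis), naive in blue and primed in orange, with exact 95% intervals of the counts. The −45 enhancer, at 13.6% and 13.5%, sits at the low end, and its 2 intervals overlap.

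The upstream arm, the distance from the viewpoint to the upstream reporter, was shorter than the downstream arm in both states. Its median was 47.8 kb in naive cells (44.4 to 52.0) and 40.3 kb in primed cells (38.5 to 44.9). The downstream median was 73.9 kb (71.3 to 78.7) in naive and 81.2 kb (76.6 to 88.9) in primed cells. The upstream arm was the longer of both in 43.8% of naive (41.8 to 45.7) and 42.5% of primed counts (40.2 to 44.9). The excluded bin ends closer to the oligonucleotide on the upstream side than on the downstream side, and with 1 more bin left out on each side the upstream difference, naive minus primed, went from 7.49 kb (1.75 to 12.1) to −7.60 kb, with an interval that held 0 (−17.03 to 9.11). The downstream difference went from −7.26 kb (−15.4 to −0.644) to −14.9 kb (−21.3 to −3.96). Its interval held 0 when only reporters within 200 kb entered (−1.34 kb, −10.03 to 6.91) and without the leading fragment of each side (−5.38 kb, −14.5 to 0.424).

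Long contacts took a smaller part in naive cells, in straddling pairs and in pairs on 1 side. Counts with an arm over 200 kb were 511 of 2596, or 19.7% (18.2 to 21.3), in naive and 462 of 1753, or 26.4% (24.3 to 28.5), in primed cells, which gave a ratio of 0.747 (0.657 to 0.849). With each distinct pair counted once the ratio was 0.704 (0.612 to 0.809). Among pairs on 1 side, those with a reporter over 200 kb away made up 20.7% and 25.8% upstream (0.801, 0.734 to 0.874) and 12.6% and 24.2% downstream (0.522, 0.487 to 0.560). Counts with both arms within 50 kb were 19.5% and 20.3%, and the interval of that ratio held 1 (0.836 to 1.10). The difference lay in distance classes of both sides. Upstream reporters at 500 to 1000 kb made up 1.35% in naive and 3.08% in primed cells (ratio 0.438, 0.278 to 0.682), and downstream reporters at that distance 3.08% and 4.91% (0.628, 0.457 to 0.862). Downstream reporters at 200 to 500 kb made up 5.39% and 7.99% (0.675, 0.530 to 0.860). At 200 to 500 kb upstream the shares were 11.7% and 12.1% (0.968, 0.810 to 1.16).

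Closer to the viewpoint, the class that holds Nanog stood out. Downstream reporters at 25 to 50 kb, where the Nanog start lies, made up 19.6% of naive (508 counts) and 13.8% of primed straddling counts (242), a ratio of 1.42 (1.21 to 1.66). Those under 25 kb downstream went the other way, with 19.7% and 23.9% (0.825, 0.724 to 0.941). On the upstream side, reporters at 100 to 200 kb made up 21.0% and 16.9% (1.24, 1.07 to 1.43). Upstream reporters under 25 kb, at 25 to 50 kb and at 50 to 100 kb had intervals that held 1, with ratios of 0.914, 0.959 and 1.15. Counting distinct pairs once, the class at 25 to 50 kb downstream was at 1.29 (1.08 to 1.53), the interval of that under 25 kb held 1 (0.814 to 1.10), and 50 to 100 kb upstream was at 1.26 (1.05 to 1.505).

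**Figure D2:**
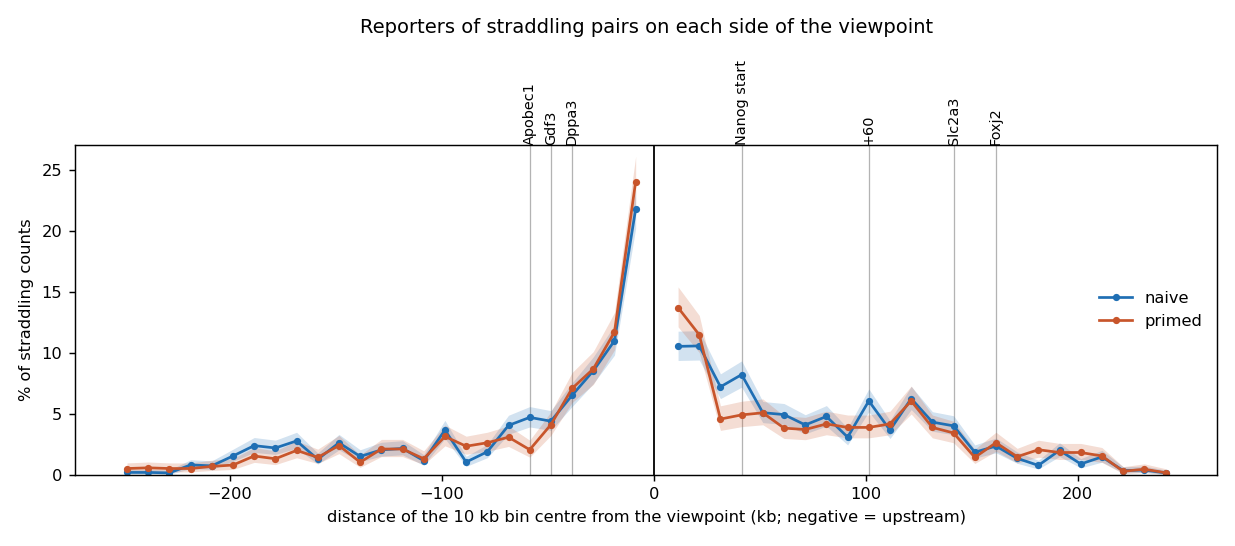
Share of straddling counts with a reporter in each 10 kb bin (y axis, percent) against the distance of the bin centre from the viewpoint in kb (x axis, negative upstream), within 250 kb, naive in blue and primed in orange, with exact 95% intervals as shading. The Nanog start bin holds 8.20% in naive and 4.91% in primed cells, and the Apobec1 start bin 4.70% and 2.05%.

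In 10 kb bins, 54 bins had at least 20 straddling counts over both states, 32 upstream and 22 downstream. A bin was called when its share of straddling counts differed at least 1.5-fold between the states. Of the 54 bins, 11 (20.4%) were called higher in naive and 4 (7.41%) lower. The same rule over the bins of pairs on 1 side, 156 bins with at least 20 reporters, called 9.62% higher and 47.4% lower in naive cells, but those bins reach farther out. In the same 54 bins the pairs on 1 side had 8 higher and 3 lower, close to the 11 and 4 of the straddling pairs. In 8 of the 54 bins the interval lay above 1 and in 4 below 1, a count that was not made for the pairs on 1 side. The 11 bins called higher fell to 4 of 40 when the shares were taken over straddling counts within 200 kb, and to 4 of 33 with bins of 20 kb.

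Downstream, the bin of the Nanog start had the highest ratio. It held 213 naive and 86 primed counts, 8.20% (7.18 to 9.33) and 4.91% (3.94 to 6.02), a ratio of 1.67 (1.30 to 2.17), or 1.54 (1.16 to 2.06) with distinct pairs counted once. This bin, chr6:122700001-122710000, also holds the −5 enhancer. The bin before it, chr6:122690001-122700000, with the predicted genes Gm10420 and Gm10224, had 187 and 80 counts (1.58, 1.21 to 2.08). The next bin, with the Nanog gene body, had 132 and 89 counts, 5.08% in each state (1.00, 0.760 to 1.33). The +60 enhancer bin, chr6:122760001-122770000, lies within the annotated span of Slc2a3, the gene of a neuronal glucose transporter. It held 157 and 68 counts, 6.05% and 3.88% (1.56, 1.17 to 2.10). The ratio over distinct pairs was 1.49 (1.09 to 2.05), under the fold of a call, and over straddling counts within 200 kb its interval held 1 (1.36, 0.997 to 1.88). The bin of the farthest downstream Nanog enhancer, 149 kb from the viewpoint, with 48 and 25 counts (1.30, 0.784 to 2.19), the bin of the outermost annotated Slc2a3 start, with 104 and 60 (1.17, 0.844 to 1.64), and the bin of the start of Foxj2, a forkhead transcription factor, with 61 and 46 (0.895, 0.601 to 1.34), had intervals that held 1. The lowest downstream ratio was in chr6:122840001-122850000, over Foxj2 and the complement receptor gene C3ar1, with 20 and 36 counts (0.375, 0.206 to 0.666). With distinct pairs counted once that interval held 1 (0.278 to 1.07), and 10 of its 36 primed counts came from 1 fragment pair.

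Upstream, the bins that hold the starts of Dppa3 and Gdf3 had similar shares in both states. Of the 26 bins tested beyond the Apobec1 start bin, 7 were called higher and 2 lower in naive cells, and the intervals of 21 held 1. The Dppa3 start bin held 169 naive and 124 primed counts, 6.51% and 7.07% (0.920, 0.726 to 1.17), and the Gdf3 start bin 114 and 72 (1.07, 0.789 to 1.46). The next bin, chr6:122600001-122610000, holds the start of Apobec1, which encodes an RNA-editing cytidine deaminase. It also holds most of Gdf3, apart from the bases next to the Gdf3 start at 122610087. This bin had 122 naive and 36 primed counts, 4.70% (3.92 to 5.59) and 2.05% (1.44 to 2.83), a ratio of 2.29 (1.57 to 3.42). Its counts lay on 109 and 34 distinct pairs, and the ratio of these was 2.15 (1.45 to 3.27). The lowest upstream ratio was also in Apobec1, in chr6:122570001-122580000, with 27 and 41 counts (0.445, 0.263 to 0.740).

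The highest upstream ratio belonged to a bin far from the enhancer. The bin chr6:122340001-122350000, 319 kb away, lies over Phc1, which encodes a subunit of Polycomb repressive complex 1. It held 45 naive and 7 primed straddling counts, 1.73% and 0.399% (ratio 4.34, 1.94 to 11.4), on 39 and 7 distinct pairs (3.74, 1.66 to 9.92). Another Phc1 bin, chr6:122320001-122330000, had 24 and 5 counts (3.24, 1.21 to 10.9), and its interval held 1 with distinct pairs counted once (0.809 to 7.92). The bin between both, chr6:122330001-122340000, had 15 and 9 counts (1.13, 0.461 to 2.92). The bin over M6pr and an end of Phc1 had 27 and 11 (1.66, 0.796 to 3.70). Reporters of pairs with both reporters upstream had a ratio of 1.71 in the first of these bins and 1.01 in the second. Bins over Rimklb made up 4 more of the 8 upstream bins called higher in naive cells, with ratios from 1.55 to 1.93. The intervals of 2 of these held 1, as did those of all 4 with distinct pairs counted once, and a Rimklb bin that was not called, chr6:122450001-122460000, was at 1.07 (0.493 to 2.42). In pairs with both reporters upstream 3 of the 4 were higher in naive cells as well, at 1.45, 2.82 and 1.71, and the fourth was at 0.750 (0.516 to 1.09).

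Whether a bin changed alike in straddling pairs and in pairs on 1 side was compared for 9 bins of genes and enhancers. For each the naive to primed ratio among straddling counts was divided by the same ratio among counts on 1 side that touch the bin, with an interval from a normal approximation on the log scale. At the Nanog start the ratio was 1.67 in straddling pairs and 2.00 (1.77 to 2.25) in pairs on the downstream side, with a quotient of 0.837 (0.635 to 1.10). At the +60 enhancer they were 1.56 and 1.404, with a quotient of 1.11 (0.819 to 1.51). In 6 of the 9 the interval of the quotient held 1. Dppa3 was higher in naive cells among pairs with both reporters upstream (1.36, 1.17 to 1.59) and was at 0.920 (0.726 to 1.17) among straddling pairs, with a quotient of 0.675 (0.511 to 0.890). The Nanog gene body was higher in naive cells on 1 side (1.73, 1.54 to 1.96) and at 1.00 (0.760 to 1.33) in straddling pairs, with a quotient of 0.578 (0.430 to 0.776). The Apobec1 start bin went the other way, with 2.29 in straddling pairs and 1.403 (1.14 to 1.74) on 1 side, a quotient of 1.63 (1.07 to 2.50). The bin of the Slc2a3 start was over-represented in straddling pairs in both states. It took 4.01% of straddling counts against 2.31% of the reporters of downstream pairs in naive cells (1.73, 1.39 to 2.15) and 3.42% against 1.87% in primed cells (1.83, 1.36 to 2.43). Other bins were over-represented in 1 state: Dppa3 (1.37, 1.11 to 1.69), the Nanog start (1.34, 1.06 to 1.69) and the Nanog gene body (1.37, 1.08 to 1.71) in primed cells. In naive cells the Apobec1 start bin was (1.35, 1.09 to 1.66), and the Nanog gene body was under-represented (0.774, 0.643 to 0.926). Distinct pairs were not used for this comparison.

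**Figure D3:**
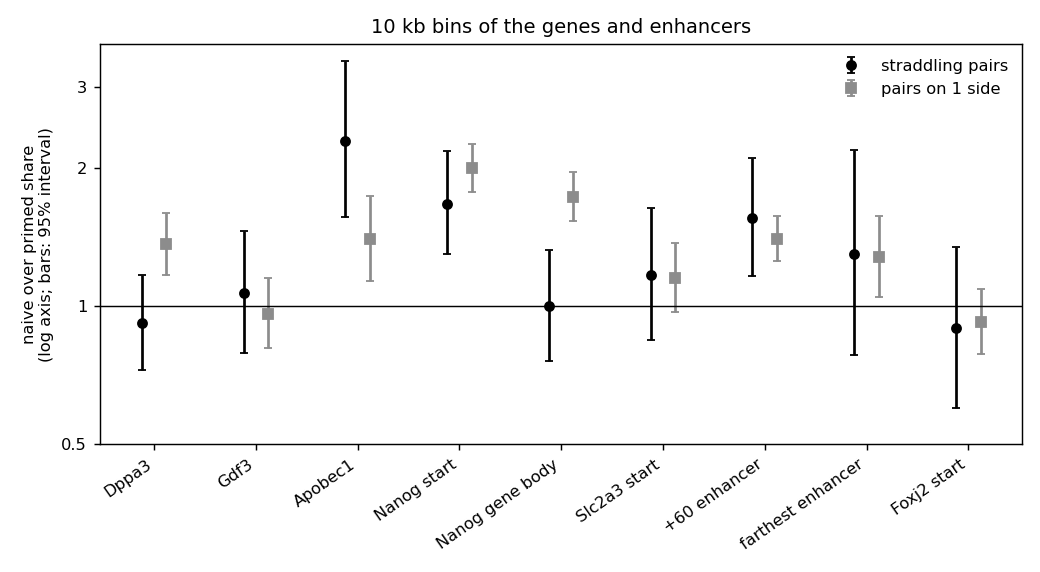
Naive to primed ratio of shares (y axis, log scale) in the 10 kb bins of 9 genes and enhancers (x axis), for straddling pairs in black and for pairs with both reporters on the side of the bin in grey, with 95% intervals of the counts. The intervals of both kinds lie above 1 at the Apobec1 start, the Nanog start and the +60 enhancer, and at Dppa3, the Nanog gene body and the farthest downstream enhancer only those of the pairs on 1 side do.

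The bin pairs with the most counts joined the bins next to the enhancer. The pair of the first upstream bin, chr6:122650001-122660000, with the first downstream bin, chr6:122670001-122680000, held 63 naive and 59 primed counts, 2.43% and 3.37%. In naive cells the next 4 were the same upstream bin with the bins that start at 122690001 (57 counts, 19 in primed), 122680001 (56, and 36), 122720001 in Slc2a3 (41, and 17) and 122780001 in Slc2a3 (39, and 23). In primed cells the next were 122640001 with 122670001 (44 counts, 37 in naive), 122650001 with 122680001 (36), and 122640001 with 122680001 and 122650001 with the Nanog start bin at 24 each (28 and 32 in naive). The excess of the pair of 122650001 with 122690001 rested in part on repeated counts. Of its 57 naive counts 16 came from 1 fragment pair, and its 29 naive and 16 primed distinct pairs gave a ratio of 1.22 (0.640 to 2.40) in place of 2.03.

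Of 865 straddling bin pairs with a count, 293 had one in both states and 35 reached 20 counts over both. Of these 35, 6 (17.1%) were at least 1.5-fold higher and 8 (22.9%) at least 1.5-fold lower in naive cells. Over all 217 bin pairs of this viewpoint within 1 Mb the shares called were 23% and 20.3%. With 20 kb bins the counts were 13 (25%) and 5 (9.62%) of 52, against 18.2% and 24.6% of 187 pairs of any kind. With distinct pairs counted once they were 2 and 5 of 27.

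The highest ratio was at the Nanog start. The bin chr6:122640001-122650000, between Dppa3 and the enhancer, met the Nanog start bin in 30 naive and 2 primed counts, 1.16% and 0.114% (ratio 10.1, 2.57 to 87.5). These lay on 21 and 2 distinct pairs (7.06, 1.72 to 62.1). The bin next to it, 122650001, met the same Nanog bin in 32 and 24 counts (0.900, 0.514 to 1.60). The lowest ratio was that of 122650001 with 122750001 in Slc2a3, with 16 and 22 counts (0.491, 0.241 to 0.979), on 13 and 15 distinct pairs (0.582, 0.255 to 1.31).

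**Figure D4:**
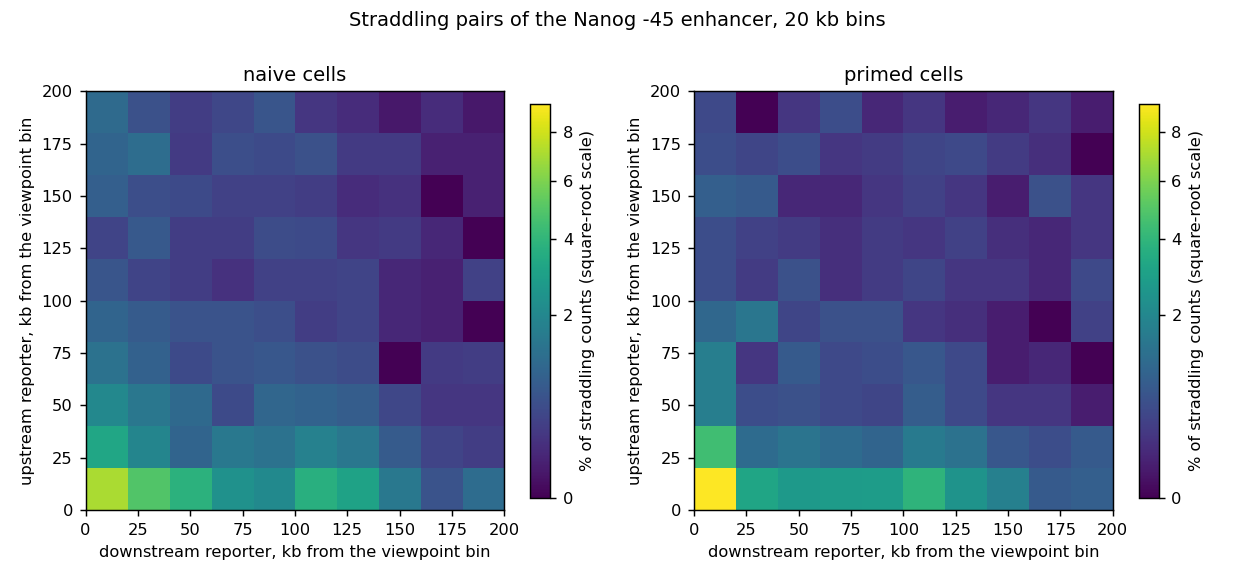
Share of straddling counts (colour, percent, square-root scale) in 20 kb bins of the upstream reporter (y axis, kb from the edge of the viewpoint bin) and the downstream reporter (x axis), naive left and primed right. The highest square, both reporters within 20 kb, holds 184 naive and 163 primed counts, or 7.09% and 9.30%, and the row next to the viewpoint carries more counts than any other.

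Contacts that join the start bin of a named gene upstream with the bin of a named gene or enhancer downstream were few. Their number was not compared with the product of the bin totals. The Apobec1 start bin used here also holds most of Gdf3. The 18 combinations of 3 upstream and 6 downstream bins held 106 naive and 49 primed counts together. No combination had more than 16 counts in a state, and each had a count in at least 1 state. A bin pair without a count allows up to 3 counts, 0.116% of the naive and 0.171% of the primed straddling counts.

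For Dppa3, the combination with the Nanog start was seen 9 times in each state (0.675, 0.237 to 1.92). On distinct pairs these were 9 and 5 (1.21, 0.364 to 4.59), so no direction could be given. Dppa3 with the +60 enhancer was seen 12 times in naive and 4 in primed cells (2.03, 0.614 to 8.62). Dppa3 with the Nanog gene body had 3 and 6 counts, with the Slc2a3 start 4 and 4, and with the farthest downstream enhancer 5 and 0. Dppa3 with Foxj2 had 0 naive and 5 primed counts, on 3 distinct pairs. The interval of the ratio ended at 0.737, and with distinct pairs counted once it held 1.

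Gdf3 with the Nanog start was seen 12 times in naive cells, on 9 distinct pairs, and not in primed cells, and the interval of the naive to primed ratio began at 1.88. These 2 bins by themselves held 72 and 86 of the 1753 primed straddling counts, with ratios of 1.07 and 1.67. With the other bins Gdf3 had from 2 to 5 naive and from 0 to 4 primed counts, and those intervals held 1. Apobec1 with the +60 enhancer had 16 naive counts, on 13 distinct pairs, and no primed count, and the interval of the ratio began at 2.60. These 2 bins by themselves held only 36 and 68 primed straddling counts, with ratios of 2.29 and 1.56. How far the single bins account for either combination was not tested. Within the 5 kb that hold each element Gdf3 with the Nanog start had 2 naive counts and Apobec1 with the +60 enhancer 1, with none in primed cells, and neither interval lay above 1. Apobec1 with the Nanog start had 13 and 4 counts (2.19, 0.678 to 9.24). Its other combinations had from 2 to 6 naive and from 0 to 3 primed counts.

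Because single bins were sparse, each side was also divided into segments named after genes, a division chosen after the values of the bins were known. Upstream these were the flank (chr6:122640001-122660000), Dppa3-Gdf3 (chr6:122600001-122640000), Apobec1 (chr6:122550001-122600000), Mfap5-Rimklb (chr6:122440001-122550000) and all beyond. The Dppa3-Gdf3 segment also holds the bin of the Apobec1 start, and the Apobec1 segment the rest of that gene. Downstream they were the flank (chr6:122670001-122700000), Nanog (chr6:122700001-122720000), Slc2a3 (chr6:122720001-122810000), Foxj2-Necap1 (chr6:122810001-122890000) and all beyond. The Nanog segment with any upstream reporter held 345 naive and 175 primed counts, 13.3% and 9.98% (1.33, 1.11 to 1.61), and with distinct pairs counted once the interval held 1 (1.21, 0.991 to 1.49). Slc2a3 with any upstream reporter held 41.1% and 37.0% (1.11, 1.01 to 1.23), an interval that also held 1 with distinct pairs counted once (0.970 to 1.20). All beyond Necap1 held 6.28% and 10.3% (0.611, 0.492 to 0.760). Upstream, Mfap5-Rimklb held 20.03% and 15.9% (1.26, 1.09 to 1.46), and all beyond Rimklb 11.3% and 13.98% (0.810, 0.682 to 0.964). The Phc1 bins are part of the latter.

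Of the 25 combinations of segments, 4 had an interval of the ratio above 1, 4 below 1 and 17 held 1. In naive cells 8% were at least 1.5-fold higher and 20% at least 1.5-fold lower, against 23% and 20.3% of all 10 kb bin pairs of this viewpoint. Those bin pairs are narrower, include pairs on 1 side and use shares of all counts within 1 Mb. The percentages are therefore not like for like. With distinct pairs counted once, 1 of the 4 above 1 stayed above it and 3 held 1, and all 4 below 1 stayed below. The Nanog segment was joined with the flank in 109 and 48 counts (1.53, 1.08 to 2.20), and in 82 and 41 distinct pairs (1.34, 0.913 to 2.01). With Dppa3-Gdf3 it was joined in 64 and 40 counts, 2.47% and 2.28% (1.08, 0.717 to 1.65). The combination of Dppa3-Gdf3 with Slc2a3, which includes the +60 enhancer, had 276 and 136 counts (1.37, 1.11 to 1.70), and with distinct pairs counted once its interval held 1 (1.23, 0.987 to 1.55). Of these counts 58 and 13 lay in the bin of the Apobec1 start, which also holds most of Gdf3. Without that bin the ratio was 1.20 (0.955 to 1.51). Mfap5-Rimklb was higher in naive cells with the downstream flank, with 146 and 65 counts (1.52, 1.12 to 2.06), and also with distinct pairs counted once (1.503, 1.09 to 2.10). With Slc2a3 it had 207 and 100 counts (1.398, 1.10 to 1.79), and 1.28 (0.981 to 1.68) with distinct pairs counted once. The 4 combinations below 1 all held 1 of the distant ends, and the lowest was the Apobec1 segment with all beyond Necap1, with 15 and 26 counts (0.390, 0.192 to 0.763).

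**Figure D5:**
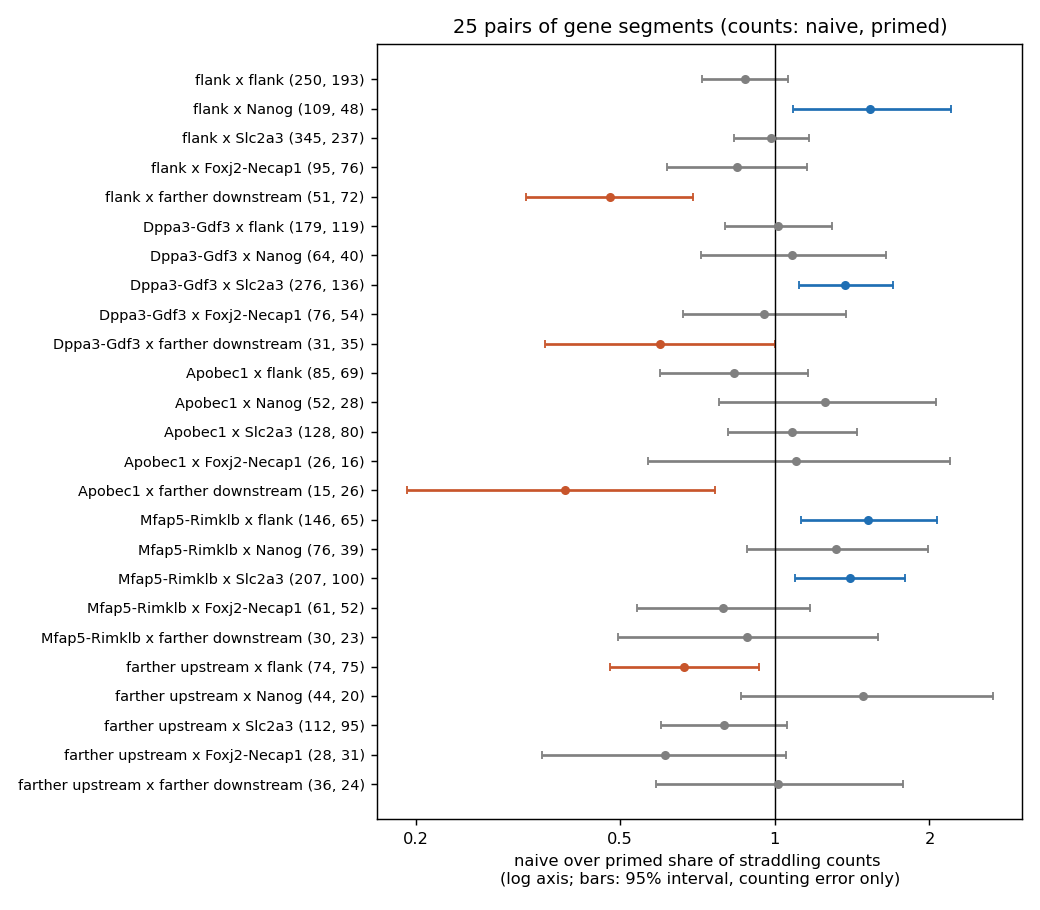
Naive to primed ratio of the share of straddling counts (x axis, log scale) for 25 combinations of an upstream and a downstream segment (y axis, naive and primed counts in brackets), with 95% intervals of the counts. Blue marks the 4 above 1, of which only Mfap5-Rimklb with the flank, at 1.52, stayed above 1 with distinct pairs counted once, and orange the 4 below 1, each with an end beyond Necap1 or Rimklb.

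The position of the upstream reporter said little about that of the downstream reporter. Over counts, Spearman's rho of both arm lengths was 0.0077 in naive (2596 counts) and −0.0006 in primed cells (1753 counts), as a description of counts that share 2 tables. Each distance class upstream met each class downstream about as often as the product of their totals gave. With classes under 50, 50 to 200 and 200 to 1000 kb, 8 of 9 class pairs in naive cells and all 9 in primed cells had intervals that held 1. The exception was long with long in naive cells. Counts with both arms over 200 kb numbered 48 against 28.7 from the product, 1.67-fold (1.23 to 2.22), and 1.78-fold (1.29 to 2.39) with distinct pairs counted once. In primed cells there were 30 against 34.3 (0.875, 0.590 to 1.25). With 6 classes on each side, 2 of the 36 class pairs lay above and 3 below the product in each state, the lowest in naive cells at 50 to 100 kb upstream with 500 to 1000 kb downstream (3 counts against 12.4).

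By segments, Dppa3-Gdf3 met Nanog less often than the product in naive cells, in 64 counts against 83.2 (0.769, 0.592 to 0.982), and with distinct pairs counted once the interval held 1 (0.623 to 1.08). All beyond Rimklb met all beyond Necap1 more often, in 36 counts against 18.5 (1.95, 1.37 to 2.70), and 1.96-fold (1.33 to 2.78) with distinct pairs. In primed cells the same combinations had 40 counts (1.04) and 24 (0.954), and the intervals held 1. Primed cells had other exceptions, Apobec1 with Foxj2-Necap1 (0.559, 0.320 to 0.908), Mfap5-Rimklb with the downstream flank (0.784, 0.605 to 0.999) and Mfap5-Rimklb with Foxj2-Necap1 (1.43, 1.07 to 1.87). The intervals of these 3 held 1 with distinct pairs counted once, and that of Mfap5-Rimklb with Nanog came to lie above 1 (1.44, 1.005 to 2.01).

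The side of the second reporter was compared with the side that single reporters took at the same distance. Only counts whose reporters lay in distance classes with at least 1 class between them entered, so that neighbouring fragments stayed out. In naive cells 47.4% of 2711 such counts had their reporters on opposite sides, against 46.1% if sides were independent, 1.03-fold (0.987 to 1.07). In primed cells 43.2% of 2115 did, against 47.2%, 0.914-fold (0.869 to 0.959). With distinct pairs counted once the naive value was 0.964 (0.920 to 1.01) and the primed 0.906 (0.857 to 0.955). The primed value was the lower one at all 10 viewpoints, and at 8 of 10 with distinct pairs counted once. The intervals of both states were apart at 2 of them, the −45 enhancer being 1. At the −45 enhancer they overlapped with distinct pairs counted once, with 1 more bin left out on each side and with at least 2 classes between the reporters. The other 9 ranged from 0.901 to 1.13 in naive and from 0.776 to 1.05 in primed cells. When the far reporter lay over 200 kb upstream, the near reporter within 50 kb was upstream too in 47.2% of 246 naive counts (40.8 to 53.6) and 49.0% of 196 primed counts (41.8 to 56.2). When it lay over 200 kb downstream, the near reporter was upstream, and the pair straddling, in 39.9% of 258 (33.9 to 46.2) and 40.9% of 318 counts (35.4 to 46.5).

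The fragments that entered most straddling pairs lay from 3.66 to 5.97 kb from the oligonucleotide on the upstream side and from 7.22 to 40.2 kb on the downstream side. Upstream, chr6:122657462-122657675 led in naive cells with 74 counts (29 in primed, ratio 1.72, 1.11 to 2.75), followed by chr6:122659518-122660241 with 54 (43 in primed, where it led) and chr6:122658134-122659486 with 45 and 32. The fragment chr6:122658054-122658129 was second in primed cells with 42 counts, against 20 in naive cells (0.322, 0.179 to 0.560). Over distinct pairs this ratio was 0.336 (0.172 to 0.631), whereas that of the leading fragment of naive cells was 1.09 (0.640 to 1.90). Of the 74 naive counts of the latter, 16 and 9 came from 1 fragment pair each. Downstream, chr6:122673609-122673911 had 26 naive and 9 primed counts, chr6:122703622-122703823, in the bin of the Nanog start, 24 and 5 (3.24, 1.21 to 10.9), and chr6:122695547-122695632 24 and 6. The last of these had 5 distinct pairs in each state, and the interval of chr6:122703622-122703823 held 1 with distinct pairs counted once (0.809 to 7.92). In primed cells chr6:122673916-122674404 led with 21 counts (7 in naive), then chr6:122676166-122676391 with 20 (9), and chr6:122670590-122670938 and chr6:122671634-122671814 with 18 each (21 and 12).

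Few pairs of any count were seen in both states, and those with a top count were not. In naive cells the highest were chr6:122657462-122657675 with chr6:122695547-122695632 at 16 counts, the same upstream fragment with chr6:122850069-122850427 in C3ar1 at 9, and 2 pairs at 7 that share the fragment chr6:122800667-122801257 in Slc2a3. In primed cells the highest was chr6:122516656-122516823 in Mfap5 with chr6:122843239-122843402 in Foxj2 at 10 counts, and 5 pairs followed at 6. The part of amplified copies in these counts was not tested.

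The same contact was sought from the other end. The viewpoint at the +60 enhancer had 92 naive and 74 primed counts, of which 3 in each state had a reporter in the bin of the −45 enhancer. None of these had its other reporter upstream of that bin, which at this depth allows up to 3.26% of the naive and 4.05% of the primed counts, so the contact of upstream sequence, −45 and +60 enhancers was not detectable from there.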

How the data were processed

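Tri-C libraries of 12 samples (2 states, 2 oligonucleotide pools, 3 biological replicates) were processed by the authors with CapCruncher against mm10, the build that the submitters' processing notes name. From reads with 2 or more cis reporters they deposited counts of reporter fragment pairs, whole numbers without normalization, with a table for each of the viewpoints in each state, 46 in all. Neither the CapCruncher version nor the aligner or the handling of duplicates is given in the sources used here. Repeated amplification would raise the counts of single pairs, so most results were also computed with each distinct pair counted once.

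Fragments were placed by their midpoints. The files count fragment starts from 0 and leave out the cut letters, and starts are printed here counted from 1, which changes no member. Gene positions and promoters come from RefSeq GRCm38.p6, the same assembly. The enhancers downstream of Nanog were placed by their named distance from its start. The other genome given was of another build and served only for gene strands. The totals were 41081 naive and 32749 primed counts for this viewpoint.

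Shares have exact Clopper-Pearson 95% intervals, ratios of shares have intervals from splitting the summed counts binomially, and counts over a product have exact Poisson intervals (Python 3.11.15, numpy 2.4.6, scipy 1.17.1, pandas 2.3.3, matplotlib 3.10.9). Medians have order-statistic intervals, which were combined in quadrature for differences of medians. With 1 pooled table per state there is no p-value. The calculations were tested on simulated data. The members and lists were chosen with earlier results of these data known. Named are the element pairs, without 1 upstream gene that is not reported here, for which reason their summed ratio is not given, the 5 bin pairs with the most counts in each state, the bin pair and the bin of each side that had the highest or lowest ratio where at least 20 counts were seen, and the 3 leading fragments of each side and fragment pairs of each state. The bins of the genes and enhancers, the Phc1 and Rimklb bins and the gene segments were added after the values were seen. Alternatives changed the denominator, the window, the bin width, the minimum count, the excluded bins, the weight of repeated pairs and the leading fragments.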

Additional observations from a re-analysis of the deposited data

How the results depend on the processing

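No paired analysis was possible because each state is 1 pooled table, which also leaves no replicate to omit. Under the alternatives, 78 values of comparisons stayed within the interval of the reported value, or within 1.5 times a reported count, 26 moved farther and 1 changed sign. The straddling ratio of 1.01 became 1.18 over every count of the table and 1.14 with distinct pairs counted once. The upstream arm difference turned to −7.60 kb with 1 more bin left out on each side, and its interval then held 0. Arm bins called higher and lower in naive cells, 11 and 4 of 54, were 4 and 2 with 20 kb bins, and 4 were higher within 200 kb. Bin pairs, 6 higher and 8 lower, were 2 and 5 with distinct pairs counted once, 13 and 5 with 20 kb bins, 3 and 1 with a minimum of 40 counts, and 5 and 11 within 200 kb. Element pairs with an interval above 1, 2 of 18, were 0 with 5 kb and 4 with 30 kb around the element. Those with an interval below 1, 1 of 18, were 0 with distinct pairs counted once, 0 with 5 kb and 0 with 30 kb. Class pairs above and below the product, 2 and 3 of 36 in each state, were 0 and 0 in primed cells with distinct pairs counted once, and with 3 classes 1 and 0 of 9 in naive and 0 and 0 of 9 in primed cells. The naive value for the side of the second reporter went from 1.03 to 0.964 with distinct pairs counted once. Other viewpoints with a lower straddling share, 1 in naive and 0 in primed cells, were 6 and 5 with distinct pairs counted once, and 2 in primed cells within 200 kb. The alternatives for the gene segments, for the distance classes and leading fragments, for arms over 200 kb and for the side at all viewpoints were chosen after seeing the data. Those for the segments, the arms over 200 kb and the side left each value within its interval or count, but with distinct pairs counted once the intervals of 5 segment results above 1 came to hold 1, namely Nanog and Slc2a3 with any upstream reporter, the flank with Nanog, and Dppa3-Gdf3 and Mfap5-Rimklb with Slc2a3. The cause of these changes was not tested. Most bin pairs held under 20 counts, so that only large differences between single bin pairs could be seen at this depth.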
